A study of Rattus norvegicus with 6 samples.

Results

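The 7 genes described here encode the Mef2 factors Mef2a, Mef2c and Mef2d, the serum response factor Srf, and its myocardin-family coactivators Myocd, Mrtfa and Mrtfb. They were found by symbol in the table of raw counts, where all 7 had a row among 16319 genes, and all 7 were among the 12028 genes that passed the filter on low counts. The cells were H9c2, an established line of rat embryonic heart myoblasts, kept in serum-containing medium. Nono-KO cells carry a frameshifting CRISPR-Cas9 deletion in an exon of Nono, made with a plasmid that confers puromycin resistance, and were compared with wild type (WT) H9c2. Each group had 3 RNA-seq libraries, which the methods call biological replicates. The protocol names a control plasmid, pEGFP-N1, without saying whether the WT libraries received it. The sources describe 1 deletion and do not say how many clones the libraries represent, so the p-values may reflect spread between cultures of a single clone. In bulk RNA, fewer cells expressing a gene and less RNA per cell cannot be told apart.

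Mef2 proteins and Srf belong to the MADS-box transcription factors, which bind short A/T-rich sequences as dimers. Mef2 factors bind the Mef2 site of many muscle genes, where class IIa histone deacetylases silence them and p38, Erk5 and calcium-dependent kinases activate them. Srf binds the CArG box and takes up alternative partners there. Ternary complex factors of the Elk family link it to growth factor signals and immediate early genes, whereas the myocardin-related factors Mrtfa and Mrtfb are held back by monomeric actin and, when released, drive genes of the actin cytoskeleton. Myocd, enriched in heart and smooth muscle, does not depend on actin in this way.

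Both kinds of site were looked for in the promoters of the factors and of genes they act on. RefSeq promoter windows of the build GRCr8, 250 bases before to 50 bases after the start of transcription, were matched for 5 of the 7 factors, namely Mef2a, Mef2d, Srf, Mrtfa and Mrtfb. Mef2c and Myocd are only named here. Srf held 2 CArG boxes, at -81 to -72 and -61 to -52 relative to the start, and Mef2a held 1 Mef2 site, at -40 to -31. The windows of Mef2d, Mrtfa and Mrtfb held neither. Among all 33469 rat promoter windows, 1.64% held a CArG box and 3.29% a Mef2 site. A match describes the letters of the window and not binding. The windows of Srf (chr9:21923826-21924125, plus strand) and Mef2a (chr1:130392113-130392412, minus strand) are shown first because each holds a site of its own family. CArG boxes and Mef2 sites are in capitals.
Srf: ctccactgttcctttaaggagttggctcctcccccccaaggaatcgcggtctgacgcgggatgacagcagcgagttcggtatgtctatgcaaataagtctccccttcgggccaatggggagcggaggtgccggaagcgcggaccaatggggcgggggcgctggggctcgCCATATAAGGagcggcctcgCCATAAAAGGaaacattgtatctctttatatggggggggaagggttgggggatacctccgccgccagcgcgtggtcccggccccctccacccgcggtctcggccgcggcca
Mef2a: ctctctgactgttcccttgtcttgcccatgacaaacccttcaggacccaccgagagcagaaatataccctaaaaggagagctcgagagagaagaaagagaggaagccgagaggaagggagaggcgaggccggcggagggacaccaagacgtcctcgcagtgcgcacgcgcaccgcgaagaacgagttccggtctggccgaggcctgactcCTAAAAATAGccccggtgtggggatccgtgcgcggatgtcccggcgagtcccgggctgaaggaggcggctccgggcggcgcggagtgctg
Target genes with such a site are shown for comparison, with Acta1 (chr19:68784145-68784444, minus strand) and Egr1 (chr18:26736828-26737127, plus strand) for the actin and the growth factor branch of Srf, and Cox6a2 (chr1:192219667-192219966, minus strand) and Hspb7 (chr5:159010509-159010808, plus strand) for Mef2. The site in the Cox6a2 window has the same 10 letters as that in the Mef2a window.
Acta1: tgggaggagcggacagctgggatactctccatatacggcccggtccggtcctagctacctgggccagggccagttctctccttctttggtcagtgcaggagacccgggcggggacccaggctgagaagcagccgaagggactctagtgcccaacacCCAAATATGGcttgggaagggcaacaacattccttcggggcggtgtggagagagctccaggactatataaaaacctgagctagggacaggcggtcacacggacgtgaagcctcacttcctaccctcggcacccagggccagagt
Egr1: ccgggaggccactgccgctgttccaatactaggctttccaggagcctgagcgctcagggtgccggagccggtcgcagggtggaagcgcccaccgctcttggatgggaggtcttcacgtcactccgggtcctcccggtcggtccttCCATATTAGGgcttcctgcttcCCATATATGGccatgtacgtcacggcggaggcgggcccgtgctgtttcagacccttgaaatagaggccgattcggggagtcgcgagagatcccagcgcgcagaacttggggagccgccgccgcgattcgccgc
Cox6a2: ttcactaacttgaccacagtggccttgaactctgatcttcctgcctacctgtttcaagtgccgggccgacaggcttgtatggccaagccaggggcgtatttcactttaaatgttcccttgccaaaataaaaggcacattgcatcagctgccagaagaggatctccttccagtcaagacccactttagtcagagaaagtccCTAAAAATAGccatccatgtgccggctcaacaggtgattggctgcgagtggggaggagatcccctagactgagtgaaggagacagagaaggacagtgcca
Hspb7: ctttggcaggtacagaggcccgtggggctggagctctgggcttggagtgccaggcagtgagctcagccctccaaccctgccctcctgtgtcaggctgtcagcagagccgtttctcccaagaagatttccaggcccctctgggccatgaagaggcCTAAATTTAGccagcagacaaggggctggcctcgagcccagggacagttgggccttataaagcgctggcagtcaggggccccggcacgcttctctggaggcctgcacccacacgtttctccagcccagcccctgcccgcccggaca

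Total counts were 17612958 to 18770188 in the Nono-KO libraries and 18138400 to 19253858 in the WT libraries. Nono had 109, 94 and 96 counts in Nono-KO and 7329, 5884 and 5519 counts in WT libraries. WT replicate 1 stood apart from the other WT libraries on the second principal component (4.96% of the variance), at 29.1 against -15.3 and -11.1, while the Nono-KO libraries lay at -2.20 to 0.43. Results that turn on this library are given with and without it. The labels name cardiac muscle as the source. Of 9 cardiomyocyte markers Nkx2-5, Gata4 and Hand2 had at least 283 counts in every library, Myh6 had 5 to 18, and Tbx5, Nppa, Tnni3, Myl7 and Ryr2 had 0 to 11 and were not tested. Endothelial markers (4 of 5 with a row) summed to at most 4.45 CPM, counts scaled to library size, and leukocyte markers (3 of 5 with a row) to at most 44.8 CPM in any library. Vwf, the only endothelial marker tested, fell (log2 fold change -2.07). Of 3 tested leukocyte markers Csf1r fell (-1.87) and 2 did not pass. Fibroblast markers (6 of 7 with a row) summed to 15906 to 18817 CPM in Nono-KO and 20054 to 24579 CPM in WT libraries, mostly from Col1a1. Of the 3 tested 1 rose and 1 fell (33.3% each, against 34.2% and 38.1% of all tested genes).

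RNA of most Mef2 and myocardin-family factors was lower in Nono-KO cells, and none of the 7 factors rose. At a Benjamini-Hochberg adjusted p under 0.05 from edgeR's quasi-likelihood test over all tested genes, 5 fell (Mef2a, Mef2c, Mef2d, Myocd and Mrtfb) and Srf and Mrtfa did not pass. Over all tested genes 38.1% fell, 34.2% rose and 72.2% passed in either direction. By the study's stricter criteria (adjusted p under 0.01, and a log2 fold change beyond 1 in size) 4 of the 7 were lower and none higher, against 18.7% and 10.8% of all genes. The 5 that fell also had every Nono-KO library below every WT library, which held for 39.0% of all tested genes, while 36.1% had the opposite separation. The median log2 fold change of the 7 was -1.28, and that of all tested genes -0.05. With 3 libraries a group the smallest p of an exact permutation test (two-sided) is 0.1, and each of the 5 reached it.

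**Figure D1:**
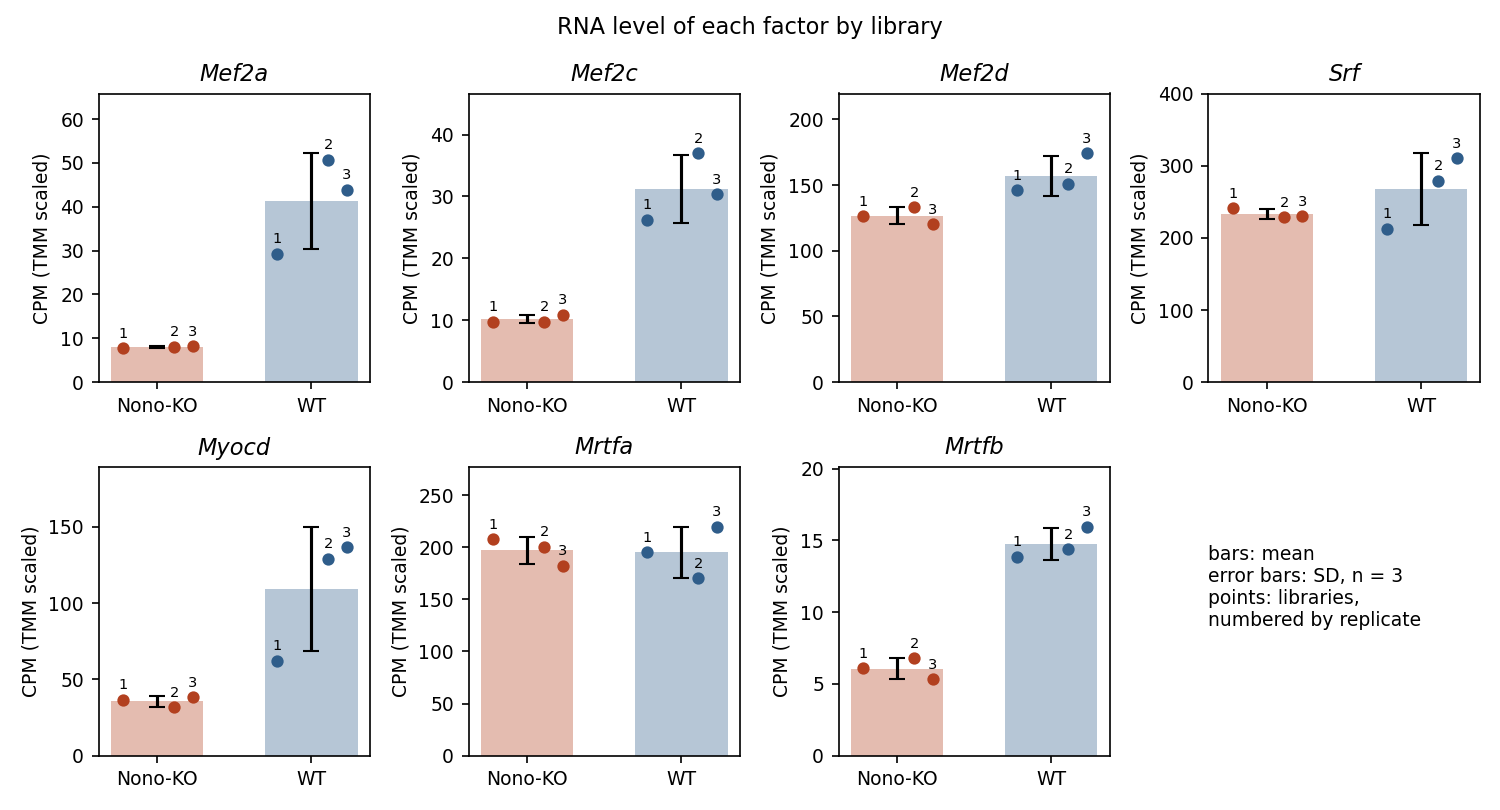
CPM after TMM scaling (vertical axes) of the 7 factors in Nono-KO and WT cells; bars are means, error bars SD and points the 3 libraries of each group, numbered by replicate. The Nono-KO libraries lie below all WT libraries for Mef2a, Mef2c, Mef2d, Myocd and Mrtfb, while the groups overlap for Srf and Mrtfa.

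Mef2a, a widely expressed Mef2 factor of heart and skeletal muscle, showed the largest fall of the 7. It had 7.78, 8.07 and 8.26 CPM in the Nono-KO libraries and 29.3, 50.7 and 43.8 CPM in the WT libraries, from 133, 145 and 156 counts against 589, 949 and 788. The Nono-KO libraries lay close together, whereas WT replicate 1 was the lowest of the WT libraries and still far above them. The mean was 8.04 ± 0.24 CPM in Nono-KO and 41.3 ± 10.9 CPM in WT cells (SD, n = 3 each), so that Nono-KO cells had 19.5% of the WT level. The log2 fold change was -2.36 (standard error 0.19, edgeR adjusted p = 7.26e-07), and 1.80% of all tested genes had a lower one.

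Mef2c, the Mef2 factor required for heart looping and for the second heart field in mice, also fell. It had 9.77, 9.80 and 10.9 CPM in Nono-KO and 26.2, 37.0 and 30.4 CPM in WT libraries, means of 10.2 ± 0.65 and 31.2 ± 5.44 CPM (SD, n = 3 each). The groups were separated by more than the spread within either. Its log2 fold change was -1.62 (standard error 0.14, edgeR adjusted p = 1.71e-06).

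Mef2d, which is expressed in many tissues, had a smaller fold change. It had 126, 133 and 120 CPM in Nono-KO and 146, 151 and 174 CPM in WT libraries, and the groups did not overlap. The means were 127 ± 6.4 and 157 ± 15.1 CPM (SD, n = 3 each), and the log2 fold change was -0.31 (standard error 0.09, edgeR adjusted p = 0.00936). Without Nono-KO replicate 3 it was -0.24 and no longer passed (edgeR adjusted p = 0.0504). The remaining family gene in the table, Mef2b, is not one of the 7 and was looked at after its values were seen. Mef2b had 33, 40 and 30 counts in Nono-KO against 12, 6 and 6 in WT libraries, and was higher in every Nono-KO library (log2 fold change 2.16, standard error 0.33, edgeR adjusted p = 0.00011). Mef2b passed the filter through the Nono-KO libraries, and 36.1% of all tested genes had the same separation.

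Srf did not pass the test with all libraries. It had 241, 229 and 230.0 CPM in Nono-KO and 213, 279 and 311 CPM in WT libraries, and WT replicate 1 lay below all Nono-KO libraries while the other WT libraries lay above them. The means were 233 ± 6.94 and 268 ± 49.9 CPM (SD, n = 3 each), with a log2 fold change of -0.20 (standard error 0.12, edgeR adjusted p = 0.159). Without WT replicate 1 the log2 fold change was -0.34 (standard error 0.08) and passed (edgeR adjusted p = 0.00198).

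Myocd, the coactivator that gives its name to the family, fell as well. It had 36.7, 31.7 and 38.2 CPM in Nono-KO and 62.3, 129 and 137 CPM in WT libraries, from 628, 570 and 722 counts against 1252, 2414 and 2456. WT replicate 1 had the lowest WT level of Myocd too, between the Nono-KO libraries and the other WT libraries. The means were 35.6 ± 3.41 and 109 ± 40.9 CPM (SD, n = 3 each). Its change on the log2 scale was -1.62, with the largest error among the 7 (0.28, edgeR adjusted p = 0.00103). Without WT replicate 1 it was -1.91 with a standard error of 0.09.

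Of the myocardin-related factors Mrtfb fell and Mrtfa did not pass. Mrtfa, the more intensively studied actin-sensing form, had 208, 201 and 182 CPM in Nono-KO and 195, 170.5 and 219.8 CPM in WT libraries. These overlapped, and the means of 197 ± 13.2 and 195 ± 24.7 CPM (SD, n = 3 each) gave a log2 fold change of 0.013 (standard error 0.10, edgeR adjusted p = 0.917). The sign of Mrtfa flipped under total count scaling (-0.043). Mrtfb, its close relative, had 6.08, 6.79 and 5.35 CPM in Nono-KO and 13.9, 14.4 and 16.0 CPM in WT libraries. Every Nono-KO library was well below every WT library, with means of 6.07 ± 0.72 and 14.7 ± 1.09 CPM (SD, n = 3 each) and a log2 fold change of -1.28 (SE 0.15, edgeR adjusted p = 1.18e-05).

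**Figure D2:**
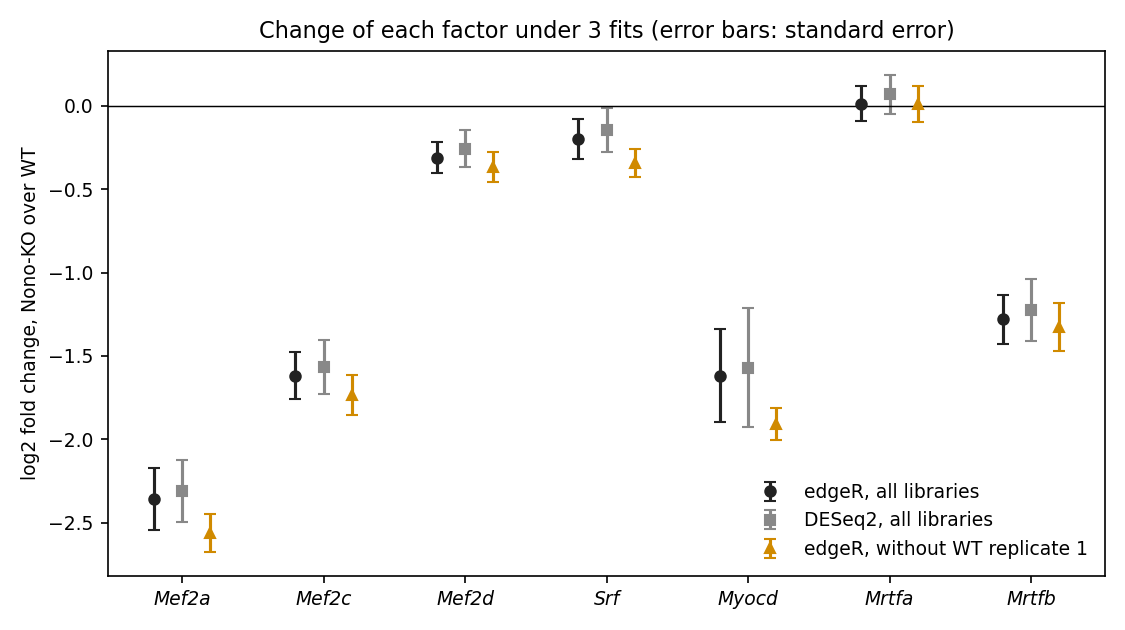
Log2 fold change of Nono-KO over WT (vertical axis) of the 7 factors, from edgeR and DESeq2 with all libraries and from edgeR without WT replicate 1; points are estimates and bars standard errors. Mef2a at -2.36 lies lowest and Mrtfa at 0.013 highest with all libraries by edgeR (-0.043 with total count scaling), and leaving out WT replicate 1 moves Srf to -0.34 and Myocd to -1.91.

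Ratios of counts within a library do not depend on the scaling between libraries, so the change in balance within each family was also read from them. Their absolute size depends on transcript length, and only their change between groups is described. Mef2a had 0.0616, 0.0606 and 0.0686 counts per count of Mef2d in Nono-KO and 0.201, 0.336 and 0.251 in WT libraries, a log2 difference of -2.02. For Mef2c over Mef2d the ratios were 0.0773, 0.0736 and 0.0906 in Nono-KO and 0.179, 0.245 and 0.174 in WT libraries, a log2 difference of -1.30. The mix of Mef2 transcripts was therefore more weighted to Mef2d in every Nono-KO library than in any WT library.
Mef2a also fell relative to Mef2c, with ratios of 0.796, 0.824 and 0.757 in Nono-KO and 1.118, 1.37 and 1.44 in WT libraries. Among the coactivators Mrtfb over Mrtfa differed by -1.30 and Myocd over Mrtfa by -1.56 on the log2 scale, again with no overlap. Myocd over Mrtfb did overlap, at 6.04, 4.67 and 7.15 in Nono-KO and 4.49, 8.97 and 8.56 in WT libraries. Of the 6 pairs compared, 5 reached the smallest value possible for the exact two-sided permutation test (p = 0.1, adjusted p = 0.12), and Myocd over Mrtfb gave p = 0.6 (adjusted p = 0.6).

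**Figure D3:**
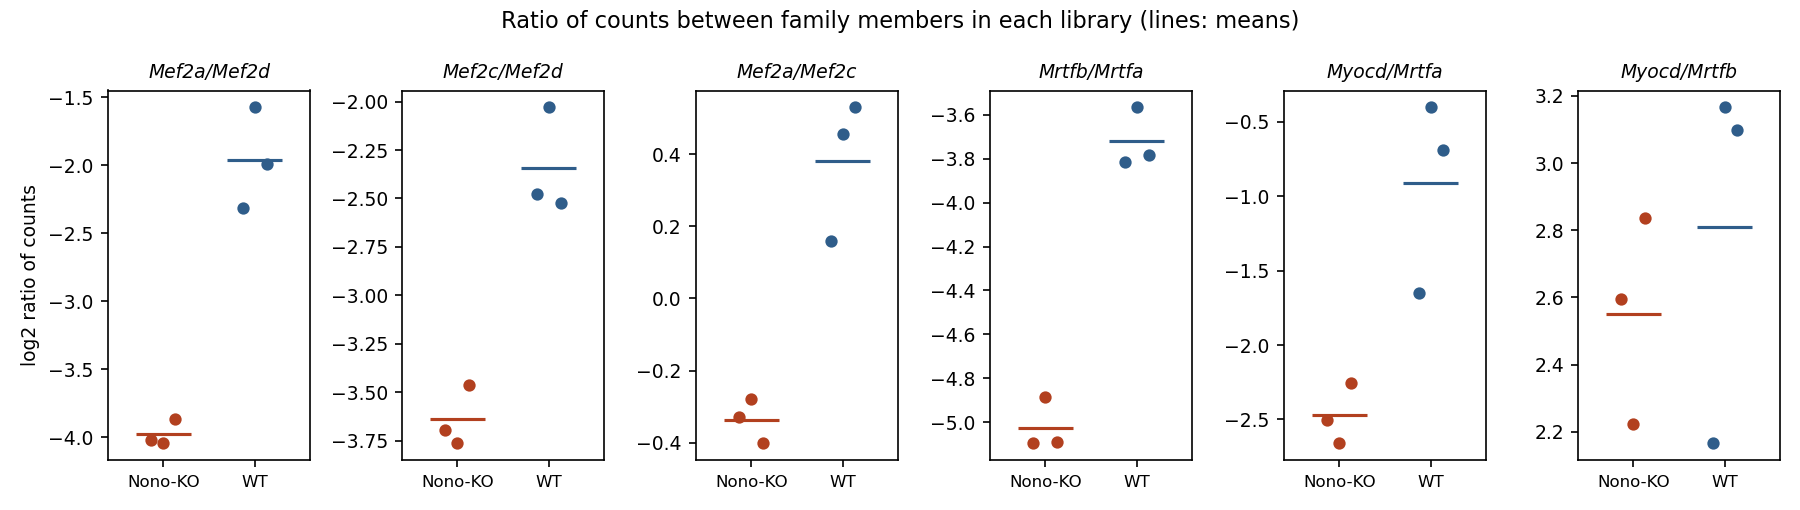
Log2 ratio of counts (vertical axes, 1 scale per panel) for 6 pairs of family members in the Nono-KO and WT libraries; points are libraries and lines means of 3. The groups are apart in the first 5 panels and overlap for Myocd over Mrtfb, where WT replicate 1 lies lowest.

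The level of Mef2a followed a pattern across the 6 libraries that many genes shared. Of 9439 tested genes that reached 5 CPM in the group where they were higher, 2339 had a Pearson correlation over 0.95 with Mef2a in log2 CPM. The highest were with Stag1, a cohesin subunit (0.9998), Tmcc3 (0.9996) and Kmt2e, a chromatin-associated protein of the trithorax type (0.9995), with log2 fold changes of -1.87, -0.85 and -1.67. For Myocd 929 genes exceeded 0.95, led by Ddx52, a DEAD-box RNA helicase (0.998), Sh3rf3 (0.998) and Nudt4 (0.997), which fell by 1.15, 0.92 and 0.61 on the log2 scale. These correlations are a description over 6 points that share the split into groups.

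Targets of the growth factor branch of Srf were mostly lower in Nono-KO cells. Of 12 listed genes 11 were tested, of which 10 fell (90.9%, against 38.1% of all genes) and 1 rose. The median log2 fold change was -2.00. Egr2 and Egr3, among those that fell, had few Nono-KO counts and passed the filter through the WT libraries. Egr1, an immediate early zinc finger factor, had 12.0, 10.97 and 11.4 CPM in Nono-KO and 109, 178 and 188 CPM in WT libraries (log2 fold change -3.78, standard error 0.20). Its window holds the 2 CArG boxes shown above. Fosb, an AP-1 subunit, averaged 5.90 ± 0.77 CPM in Nono-KO and 34.6 ± 13.4 CPM in WT cells (SD, n = 3 each; log2 fold change -2.55).
Averaged over all 6 libraries, Junb and Mcl1 had the highest CPM of the list. Junb, another AP-1 subunit, averaged 129.9 ± 8.21 CPM in Nono-KO and 479 ± 90.3 CPM in WT cells (SD, n = 3 each), and Mcl1, an anti-apoptotic Bcl2-family protein, 96.8 ± 6.51 and 201 ± 17.2 CPM. The exception was Ier3, which rose by 0.47 on the log2 scale (edgeR adjusted p = 0.0282), with 152 to 178 CPM in Nono-KO and 82.4 to 139 CPM in WT libraries. Without WT replicate 1, the lowest library, its log2 fold change was 0.26 (edgeR adjusted p = 0.0185). Its pass was lost without Nono-KO replicate 1 or 2 (edgeR adjusted p = 0.0847 and 0.0695).

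Among 12 other partners and inhibitors of Srf 11 were tested, of which 5 fell (45.5%, against 38.1% of all genes) and 3 rose, with a median log2 fold change of 0.03. Among the ternary complex factors Elk3 and Elk4 fell. Elk4 had 21.99, 21.93 and 22.2 CPM in Nono-KO and 76.1, 94.0 and 97.5 CPM in WT libraries (log2 fold change -2.02, standard error 0.11), and Elk3 averaged 73.7 ± 3.34 CPM in Nono-KO and 211 ± 9.99 CPM in WT cells (SD, n = 3 each). Elk1, added after its values were seen, did not pass, with a log2 fold change of 0.03 (edgeR adjusted p = 0.745). Csrp2, a LIM protein that bridges Srf and Gata factors, rose to 256 ± 8.73 CPM in Nono-KO against 110.5 ± 4.54 CPM in WT cells (SD, n = 3 each), and the cardiac homeobox factor Nkx2-5 had a log2 fold change of 0.96. Hopx, a corepressor of Srf, had 1, 1 and 0 counts in Nono-KO and 0 in each WT library and was not tested.

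Targets of the actin branch of Srf moved both ways. Of 34 tested 17 rose (50%), 9 fell (26.5%) and 8 did not pass. Over all genes 34.2% rose and 38.1% fell. The list's median log2 fold change was 0.21. Among those that rose, Actc1, Mylk and Myh11 had few WT counts (1, 9 and 6 for Actc1). These passed the filter through their Nono-KO libraries, so the filter has a part in the share that rose and in the median. Skeletal muscle actin Acta1 had 438, 557 and 445 CPM in Nono-KO and 6.12, 17.4 and 20.5 CPM in WT libraries (log2 fold change 5.04, standard error 0.43), and WT replicate 1 was again the lowest. The myosin light chain kinase gene Mylk had 92, 98 and 100 counts in Nono-KO and 2, 10 and 9 counts in WT libraries, so its log2 fold change of 3.83 is imprecise. On the other side Vcl, the adhesion protein vinculin, had 118, 116 and 120 CPM in Nono-KO and 336, 406 and 427 CPM in WT libraries (log2 fold change -1.72, standard error 0.10). Wdr1, a cofactor of actin disassembly, averaged 279.7 ± 7.53 CPM in Nono-KO and 566 ± 37.1 CPM in WT cells (SD, n = 3 each).
Averaged over all 6 libraries, the list's highest CPM were those of actins. Smooth muscle actin Acta2 rose with a log2 fold change of 1.13 (standard error 0.08), while cytoplasmic Actb had one of 0.11 and did not pass (edgeR adjusted p = 0.166). Actin genes are near-identical in coding sequence, and reads shared between them may have been split or dropped in the counting. All 6 smooth muscle markers fixed for this report are in this list. Of them 5 rose (83.3%, against 34.2% of all genes) and 1 did not pass. Myh11, among those that rose, had 16, 8 and 9 WT counts and passed the filter through the Nono-KO libraries. Their summed level was 14591 to 15673 CPM in Nono-KO and 6636 to 7491 CPM in WT libraries, with none at 0. Most of it was Acta2, at means of 11595 CPM in Nono-KO and 5311 CPM in WT cells. The part of this marker set in the result was not tested.

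Most listed targets of Mef2 were higher in Nono-KO cells, in which Mef2a, Mef2c and Mef2d were lower. Of 25 listed 20 were tested, of which 16 rose (80.0%, against 34.2% of all genes), 2 fell and 2 did not pass. The median log2 fold change was 2.24. Among those that rose, Ckm, Ckmt2, Hrc, Mb, Myoz2, Smpx, Srpk3 and Stac3 had few WT counts (2, 2 and 4 for Stac3). These passed the filter through their Nono-KO libraries, so the filter has a part in this share and median. The muscle regulatory factor Myog, whose promoter is bound by Mef2, had 99.1, 117 and 101 CPM in Nono-KO and 4.63, 7.59 and 7.29 CPM in WT libraries (log2 fold change 4.03, standard error 0.16). Ldb3, a Z-disc protein, averaged 15.1 ± 1.38 CPM in Nono-KO and 1.78 ± 0.45 CPM in WT cells (SD, n = 3 each). Both genes were higher in every Nono-KO library than in any WT library.
The targets that fell were Lmod3, an actin nucleator of thin filaments (log2 fold change -1.22), and Nr4a1, an orphan nuclear receptor (-0.82), which is also in the growth factor list of Srf. Jun and Xirp1, with the highest CPM of the list averaged over all 6 libraries, did not pass. Jun had 155, 136 and 138 CPM in Nono-KO and 90.7, 155 and 181 CPM in WT libraries, and without WT replicate 1 its log2 fold change went to -0.23 and passed (edgeR adjusted p = 0.0372). Xirp1 had a log2 fold change of 0.13, which was 0.017 without WT replicate 1 (edgeR adjusted p = 0.877) and passed with 0.25 without WT replicate 3 (edgeR adjusted p = 0.0416). Ppargc1a, Myl2 and Nppa had at most 5 counts in a library and were not tested. Markers of skeletal myoblasts and myotubes moved with this list and share Myog and Des with it. Of 9 such markers 6 had a row and 5 were tested, of which 4 rose (80.0%, against 34.2% of all genes) and Myod1 did not pass. Mymx, among those that rose, had 5, 5 and 9 WT counts and passed the filter through the Nono-KO libraries. The summed level of the markers with a row was 349 to 389 CPM in Nono-KO and 148 to 180 CPM in WT libraries, with none at 0. Myod1 lay at the threshold (log2 fold change 0.26, edgeR adjusted p = 0.0501) and passed as higher in 6 of 15 alternatives, among them DESeq2 (adjusted p = 0.0191), and without WT replicate 3 (edgeR adjusted p = 0.00365) or Nono-KO replicate 3 (0.0335). The part of these markers in the result was not tested.

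**Figure D4:**
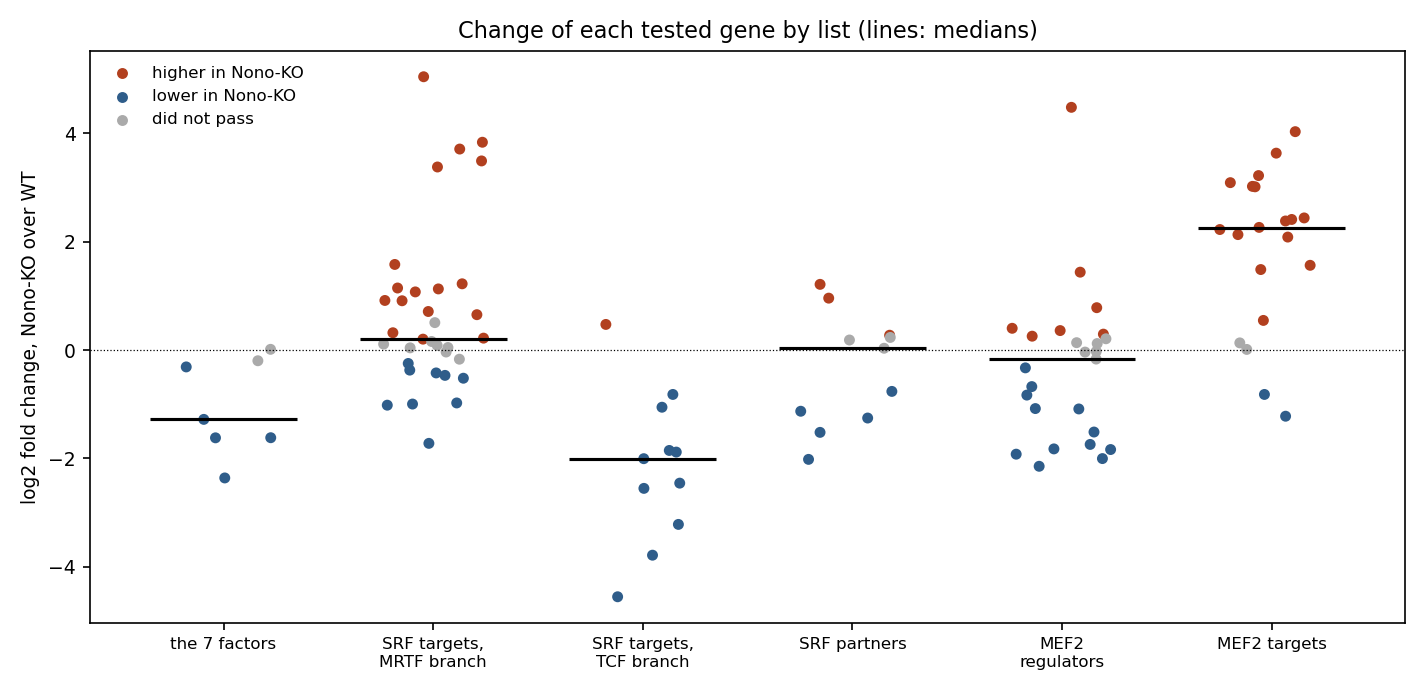
Log2 fold change of Nono-KO over WT (vertical axis) of each tested gene of the 7 factors and the 5 lists around them (horizontal axis); each dot is 1 gene, with colour for passing an adjusted p under 0.05, and lines are medians. The medians are -1.28 for the factors, 0.21 and -2.00 for the actin and growth factor targets of Srf, 0.03 for its partners, -0.17 for Mef2 regulators and 2.24 for Mef2 targets.

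Genes for regulators of Mef2 proteins moved both ways, with a median log2 fold change of -0.17. Of 28 listed 25 were tested, of which 12 fell (48.0%, against 38.1% of all genes), 7 rose and 6 did not pass. Among those that rose, Mamstr and Mapk11 had few WT counts (5, 7 and 8 for Mapk11) and passed the filter through their Nono-KO libraries. The kinase Camk2d, which acts on class IIa histone deacetylases, had 13.3, 11.4 and 11.6 CPM in Nono-KO and 44.6, 56.6 and 59.4 CPM in WT libraries (log2 fold change -2.14, standard error 0.13). The coactivator gene Ncoa2 averaged 1.56 ± 0.64 CPM in Nono-KO and 6.26 ± 0.62 CPM in WT cells (SD, n = 3 each). Among kinases that rose were Prkd2 (log2 fold change 0.78) and Map2k5, the activator of Erk5 (0.40). Prkd1 and Prkd3, of the same family as Prkd2 and named after their values were seen, fell (-0.67 and -1.92).
The class IIa deacetylases moved in both directions. Hdac7 and Hdac5, the regulators with the highest CPM averaged over all 6 libraries, rose by 0.29 and 0.36, while Hdac4 and Hdac9, named after their values were seen, had log2 fold changes of -0.33 and -1.82. The rise of Hdac7 did not pass without WT replicate 2 (edgeR adjusted p = 0.066) or without Nono-KO replicate 1 (0.0636). The RNA of Mamstr, a coactivator of Mef2 in muscle, also named after its values were seen, had 16, 18 and 16 counts in Nono-KO and 0, 2 and 0 counts in WT libraries.

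Genes with a site in the promoter window went in both directions. Of 130 tested genes with a CArG box 38.5% rose and 37.7% fell, and of 133 with a Mef2 site 42.9% rose and 33.8% fell, against 34.0% and 39.0% of the 9354 tested genes with a window. Among the 9354 tested genes with a window 1.39% held a CArG box and 1.42% a Mef2 site. In the target lists the site of the list's own factor was more frequent. CArG boxes were in 7 of 29 windows of the actin targets of Srf and 2 of 7 of its growth factor targets. Mef2 sites were in 6 of 19 windows of Mef2 targets. The lists were drawn up from known targets, some of them established through such sites. Of the 7 actin targets with a CArG box 4 rose, 1 fell and 2 did not pass, whereas both growth factor targets with one, Egr1 and Egr2, fell. Of the 6 Mef2 targets with a Mef2 site 5 rose and Xirp1 did not pass, while Mef2a, with the same kind of site in its own window, fell. Myoz2, Smpx and Srpk3 among these targets, and Actc1 among the actin targets, had few WT counts and passed the filter through the Nono-KO libraries. Egr2, with 2, 2 and 3 Nono-KO counts, passed it through the WT libraries. Cox6a2, the striated muscle form of subunit VIa of cytochrome c oxidase, whose window is shown, averaged 30.1 ± 4.96 CPM in Nono-KO and 5.68 ± 1.09 CPM in WT cells, and the small heat shock protein gene Hspb7 121 ± 8.95 and 25.9 ± 5.25 CPM (SD, n = 3 each). These promoter results are descriptions of letters in short windows and carry no test.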

How the data were processed

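RNA of 3 Nono-KO and 3 WT H9c2 libraries was sequenced from stranded mRNA libraries. The authors deposited raw counts per gene symbol with no scaling and no pooling. Per the submitters' processing notes the reads passed through Trimmomatic, HISAT2 and HTSeq (no versions; build mRatBN7.2), whereas the methods state Bowtie2 with Rn6. The annotation used and the strand setting were not stated, and reads of paralogs or overlapping genes may have been split or dropped. The 6 single-library files repeat the values of the joint table and were not used.

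Counts were analysed in R 4.3.3 with edgeR 4.0.16 (filterByExpr, TMM, robust quasi-likelihood test, Benjamini-Hochberg over 12028 genes, 4291 left out). A gene was said to rise or fall at an adjusted p under 0.05. CPM are TMM scaled, fold changes are Nono-KO over WT, and standard errors were derived from the F statistic. Totals of 17612958 to 19253858 counts per library leave genes with a few counts without a precise fold change. The members and lists were chosen with earlier results of these data known. A further list of genes is not reported here. Named genes are the 7 factors, Nono, the 2 largest rises and 2 largest falls of each list (5 CPM or more in whichever group was higher), its 2 genes with the highest mean CPM over all libraries, and the 3 genes most correlated with each of the 2 factors that changed most. Genes named for few counts, and Vwf, Csf1r, Col1a1, Prkd1 and Prkd3, were added after their values were seen. Promoters came from RefSeq (GRCr8, not the build of the counts), and those shown were chosen after the search for sites. The CArG box and the Mef2 site were searched on both strands, and 0 CArG boxes overlapped a Mef2 site in the lists. The test was checked on simulated counts, where it called 23 of 49 genes changed 1.5-fold and 9 of 11715 unchanged genes. Far fewer genes were changed there than the 72.2% that passed here, so the check does not cover that setting. Alternatives were DESeq2 1.42.0, other scalings, filters and thresholds, dispersions that are not robust, a replicate block, and leaving out each library.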

Additional observations from a re-analysis of the deposited data

How the results depend on the processing

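Mef2a, Mef2c, Myocd and Mrtfb kept their direction and passed under all 15 alternatives, with log2 fold changes of -2.56 to -2.19, -1.73 to -1.48, -1.91 to -1.43 and -1.35 to -1.16. Leaving out 1 library at a time gave these same ranges and, for Mef2d, -0.37 to -0.24, for Srf, -0.34 to -0.083, and for Mrtfa, -0.082 to 0.10. Mef2d did not pass under the study thresholds (-0.31) or without Nono-KO replicate 3, and Srf passed without WT replicate 1. Mrtfa, which never passed, was at -0.043 with total count scaling, -0.023 with no filter, -0.082 without WT replicate 2 and -0.019 without Nono-KO replicate 1. Jun, which passed only without WT replicate 1 (-0.23), was at -0.038 with total count scaling, -0.027 with no filter and -0.039 without Nono-KO replicate 1, and reached 0.22 without WT replicate 3. Under the study thresholds, which ask for a larger change, 10 actin targets of Srf rose and 2 fell, 0 growth factor targets rose, 1 partner of Srf rose, 2 Mef2 regulators rose, 1 Mef2 target fell, and over all genes 1294 rose and 2252 fell. The 2 Mef2 regulators were Mamstr and Mapk11, which had few WT counts. Growth factor targets of Srf that rose numbered 0 with no filter, and 0 to 1 when 1 library was left out. With DESeq2 50.02% and with total count scaling 44.4% of the genes that passed were higher, against 47.3%. The replicate numbers did not pair the libraries, as the deviations of same-numbered libraries correlated at 0.05, -0.16 and -0.19. With the replicate block 5 of the 7 factors fell, as without it, with Mef2a at -2.33, Mef2d at -0.31 and Srf at -0.18. Depth limits genes with few counts in 1 group. Among them are Mef2b and Mamstr, whose WT counts were 0 to 12, and Egr2, Egr3, Actc1, Mylk, Ckm, Stac3 and Smpx. No cause of a changed outcome was tested.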
